A study of Rattus norvegicus with 12 samples.

Results

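The genes described here are the 100, of 32883 in the count table, whose RNA was higher with an siRNA against NRF2 than with a control siRNA in both of the cell types studied. They were chosen on the counts themselves. Each count was divided by the total of its library and multiplied by 1000000 (abbreviated CPM). A gene was taken if it lay on chromosomes 1 to 20 and averaged at least 2 CPM with the NRF2 siRNA in each cell type. In each cell type it also had to average at least 1.4 times the control level, with its lowest NRF2 siRNA library above its highest control library. One gene, named in the rule, was left out. Because these values chose the genes, the differences between siRNAs are given below as a description.

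The RNA came from primary rat cells of the pulmonary artery labelled as wild type and from lung, which were grown in culture. Pulmonary artery smooth muscle cells (PASMC) contract to set the calibre of the vessel, and pulmonary artery endothelial cells (PAEC) line its lumen. There were 4 groups of 3 libraries, namely PASMC with NRF2 siRNA (siNRF2), PASMC with control siRNA (siControl), PAEC with siNRF2 and PAEC with siControl. The design text calls the libraries biological replicates and nothing in the labels ties them to separate animals or cultures, so p-values measure the spread between these libraries. The sources used here give no strain, age, siRNA sequence, dose or time.

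The cell type field of the labels reads PASMC for all 12 samples, while the titles name PAEC for 6 of them, and the titles were followed. The columns of the count table carry letters in place of titles. The first letter was read as the cell type (E endothelial, S smooth muscle) and the second as the siRNA (C control, S against NRF2). No label states this reading, and every direction below rests on it. The libraries held 27008812 to 34317763 counts, so that 1 CPM stood for 27.0 to 34.3 counts. The lowest count of any of the 100 genes in any library was 13.

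NRF2 is a transcription factor that is kept low in resting cells by KEAP1, which marks it for degradation. Oxidants and electrophiles free it from KEAP1, and it then binds antioxidant response elements together with small MAF proteins and raises genes of glutathione synthesis, quinone reduction and iron handling. In the pulmonary artery, oxidant signalling is known to act on vessel tone and on the growth of the wall. An siRNA lowers the mRNA that it matches, and RNA that depends on an activator falls when the activator is lowered.

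The table names genes by Ensembl ID without symbols, and 0 of the 100 could be paired with a symbol in the gene table used here. Their functions are therefore not given. Lists of pathway genes and cell type markers, and the check of the siRNA target and of the labelled cell types, were not run. The 2 genes that rank highest are given by ID, and the others by their position in the count table. No source used here names the genome build of these positions. In bulk RNA, fewer cells of a kind and less RNA per cell cannot be told apart.

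The conditions of the rule narrowed the table as follows. Of 31044 genes on chromosomes 1 to 20, 10427 reached the CPM minimum in both cell types and are called eligible here. In PASMC, 872 of these (8.36%) met the ratio and the condition on overlap, and in PAEC 567 (5.44%) did. The 100 genes were 0.959% of the eligible genes. The same rule turned round found 241 genes lower with siNRF2 in both cell types (2.28% of the genes eligible for it). With the directions opposed, 113 genes rose in PASMC and fell in PAEC (1.07%), and 57 did the reverse (0.545%). Scaled by column totals, genes lower in both were thus the most frequent of the 4 patterns. With edgeR's TMM factors, another scaling of library sizes, 133 genes rose in both. The other patterns were not counted with that scaling.

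The condition on overlap was met by 25.8% of eligible genes in PASMC and by 17.8% in PAEC, counting rises alone. In edgeR's quasi-likelihood test over all 14584 genes that passed its filter, which include all 100, 95 of the 100 were called higher with siNRF2 in PASMC, where 16.1% of all genes tested were (21.3% of eligible genes, and 30.7% of all genes in either direction). In PAEC 96 were called, where 11.5% of all genes were, and 93 were called in both, where 3.15% of all genes and 4.31% of eligible genes were. The rule used these same contrasts, so the counts describe the members and are no evidence of their direction. The 7 genes not called in one or both cell types had group means from 1.15 to 14.8 CPM, against a median of 30.2 CPM over the group means of the other 93. Low levels also occurred among the 93. The gene at chr7:116156219-116255167, called in both, averaged 0.751 CPM in PAEC siControl.

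The changes were mostly moderate. The median log2 fold change, siNRF2 over siControl, was 0.72 in PASMC (range 0.53 to 2.74) and 0.79 in PAEC (range 0.53 to 1.92), where the medians of all genes tested were 0.0048 and 0.0. These medians correspond to 1.64-fold and 1.73-fold. The log2 fold change exceeded 1 for 14 genes in PASMC, 36 in PAEC and 8 in both. Between PASMC and PAEC, Pearson's r of these changes was 0.21 over the 100 genes and 0.052 over the eligible genes, and Spearman's rho was 0.20 and -0.00021. These are descriptions over genes that share 12 libraries, and the rule bounds both changes from below.

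**Figure D1:**
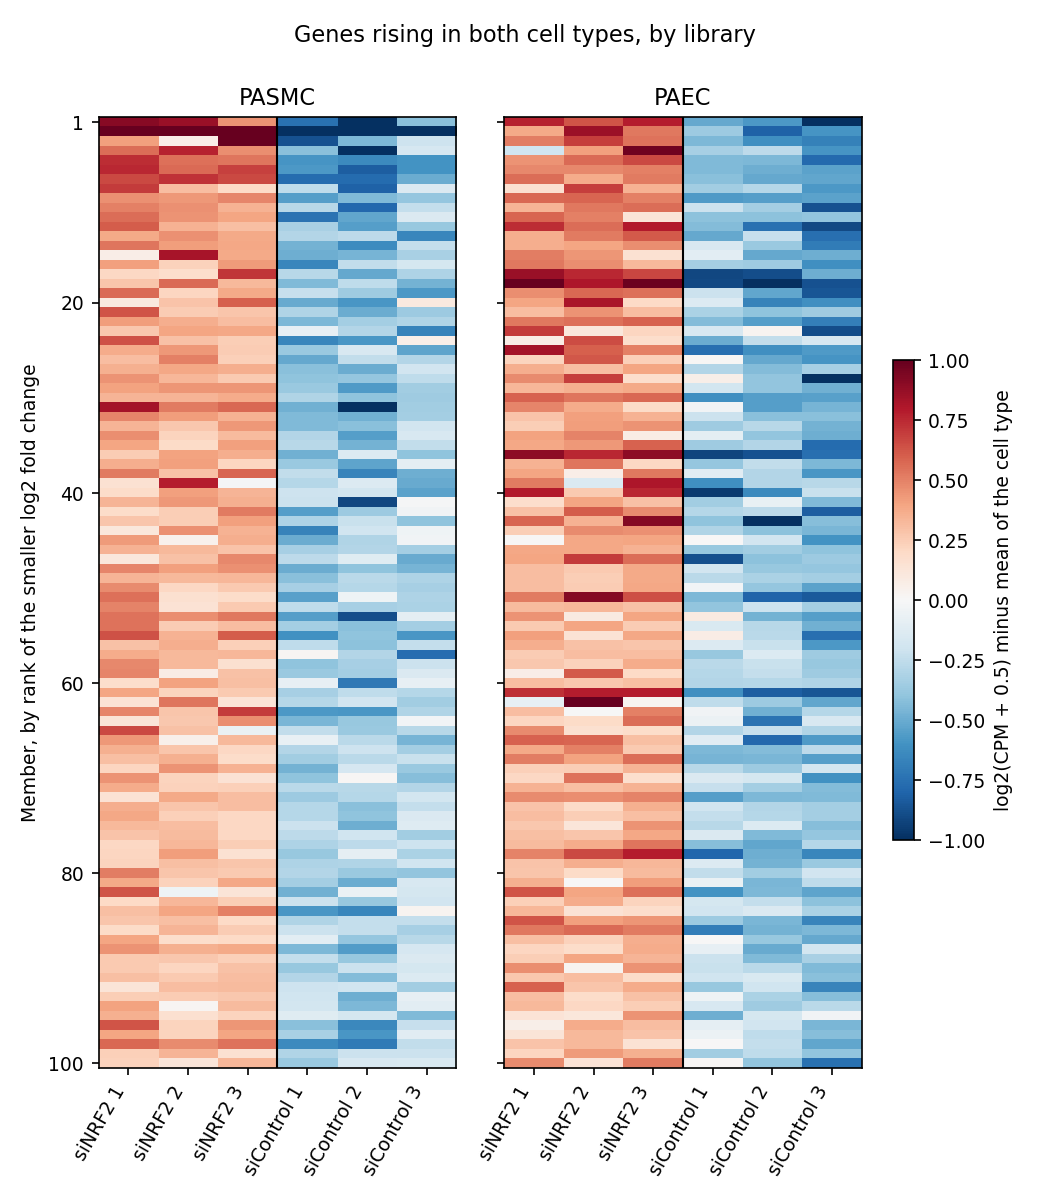
Each row is one of the 100 genes, ordered by the smaller of its log2 fold changes, and each column is a library. Colour is log2(CPM + 0.5) minus the mean of the gene over the 6 libraries of the cell type, from blue (lower) to red (higher), clipped at -1 and 1. The siNRF2 columns are mostly red and the siControl columns mostly blue, as the rule requires, with the strongest contrast in the top rows and, in PAEC, in single rows further down.

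As a share of the library, the 100 genes together took 1.39%, 1.30% and 1.31% of counts in PASMC siNRF2, against 0.831%, 0.817% and 0.856% in PASMC siControl. In PAEC they took 2.95%, 2.88% and 2.99% in siNRF2, against 1.87%, 1.71% and 1.61% in siControl. One gene, chr10:82745801-82762789, made up most of the PAEC sums. Without it the shares were 0.911 ± 0.027% in PASMC siNRF2 and 0.550 ± 0.021% in PASMC siControl, and 0.989 ± 0.021% in PAEC siNRF2 and 0.498 ± 0.041% in PAEC siControl (mean ± SD, n = 3 each). The remaining 99 genes thus took similar shares of counts in the cell types, while the sum of all 100 was higher in PAEC under either siRNA.

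Single libraries set how far the groups stood apart. Among PAEC siControl libraries, replicate 1 was the highest for 58 of the 100 genes, and among PASMC siControl libraries replicate 3 was the highest for 57. The matching shares over all eligible genes were not counted, so these counts are not read as particular to the 100 genes. Without PAEC siControl replicate 1 the rule would take 130 genes, and 99 of the 100 would remain. Without PASMC siControl replicate 3 it would take 113, with 97 of the 100 among them. Leaving out any of the other 10 libraries gave 97 to 109 genes. With library sizes scaled by edgeR's TMM factors in place of column totals, the rule would take 133 genes, the 100 among them.

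The genes are described in the order of the smaller of their log2 fold changes, starting with the highest. ENSRNOG00000047046 (chr9:10963723-10971277, 10 merged exons) had 11.6, 11.2 and 8.29 CPM in PASMC siNRF2, against 3.33, 2.61 and 4.32 CPM in PASMC siControl. In PAEC it had 20.1, 18.2 and 20.3 CPM with siNRF2, against 7.99, 7.63 and 5.17 CPM with siControl. Its log2 fold changes were nearly equal, at 1.64 (SE 0.20) in PASMC and 1.54 (SE 0.20) in PAEC.

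ENSRNOG00000011490 (chr8:22856539-22858565, 4 merged exons) had 18.7, 13.8 and 16.4 CPM in PASMC siNRF2, against 2.85, 1.84 and 2.86 CPM in PASMC siControl. In PAEC it had 29.0, 40.4 and 32.2 CPM with siNRF2, against 17.1, 12.4 and 14.5 CPM with siControl. The log2 fold change of 2.74 (SE 0.19) in PASMC was the largest of the 100 genes there, while in PAEC it was 1.25 (SE 0.17). In each cell type its groups lay far apart, and the PASMC siControl libraries were the lowest of the 12.

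Of the genes ranked next, chr16:8128689-8177841 (11 merged exons) was far higher in PAEC than in PASMC. It had 96.0, 109 and 98.2 CPM in PAEC siNRF2, against 49.2, 43.8 and 41.8 CPM in PAEC siControl. In PASMC it had 2.59, 1.95 and 4.33 CPM with siNRF2, against 0.778, 1.21 and 1.52 CPM with siControl. The PASMC groups were separated narrowly, by 1.95 CPM in the lowest siNRF2 library against 1.52 CPM in the highest siControl library, while the log2 fold changes of 1.36 (SE 0.27) in PASMC and 1.21 (SE 0.17) in PAEC were alike.

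The single-exon gene at chr17:43797721-43798383 was among the least abundant of the top 12 and its groups nearly touched. It had 4.63, 5.45 and 4.30 CPM in PASMC siNRF2, against 2.11, 1.0045 and 2.60 CPM in PASMC siControl. In PAEC it had 1.33, 2.30 and 3.64 CPM with siNRF2, against 1.17, 1.26 and 0.898 CPM with siControl. In PAEC its log2 fold change was 1.18 (SE 0.40), and 0.74 without siNRF2 replicate 3, the highest library.

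The gene at chr20:3287506-3299580 (13 merged exons) was among those with an intermediate level in each cell type. It had 83.3, 73.1 and 72.6 CPM in PASMC siNRF2, against 33.0, 31.9 and 32.8 CPM in PASMC siControl. In PAEC it had 50.9, 55.3 and 59.1 CPM with siNRF2, against 27.2, 27.2 and 21.5 CPM with siControl. The groups lay far apart, with log2 fold changes of 1.27 (SE 0.10) in PASMC and 1.17 (SE 0.10) in PAEC. These first 5 genes are those whose mean CPM was at least 2 times higher with siNRF2 in both cell types.

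The genes ranked 6 and 7 were tightly replicated. At chr7:14037620-14043779, levels were 133, 117 and 126.5 CPM in PASMC siNRF2 against 52.6, 44.2 and 52.0 CPM in PASMC siControl, and 50.2, 50.4 and 51.1 CPM in PAEC siNRF2 against 26.3, 25.5 and 24.7 CPM in PAEC siControl. At chr14:44943172-45002719, they were 85.0, 88.8 and 85.1 CPM in PASMC siNRF2 against 31.3, 31.2 and 37.8 CPM in PASMC siControl, and 85.9, 75.3 and 83.5 CPM in PAEC siNRF2 against 43.3, 40.5 and 40.4 CPM in PAEC siControl. In both genes the groups lay far apart relative to their spread, and the log2 fold change was larger in PASMC, at 1.38 and 1.41, than in PAEC, at 1.03 and 1.02.

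Ranks 8 to 12 differed widely in level. The single-exon gene at chr10:70398995-70400317 averaged 2.95 ± 0.66 CPM in PASMC siNRF2 and 1.49 ± 0.46 CPM in PASMC siControl, and 3.81 ± 0.81 CPM in PAEC siNRF2 and 1.95 ± 0.25 CPM in PAEC siControl (mean ± SD, n = 3, here and below). The gene at chr10:45563547-45579029 averaged 351 ± 6.4 CPM in PASMC siNRF2 and 185 ± 11 CPM in PASMC siControl, and 219 ± 6.3 CPM in PAEC siNRF2 and 102 ± 1.4 CPM in PAEC siControl. Its log2 fold changes of 0.96 (SE 0.068) and 1.15 (SE 0.068) carried small errors for their size.

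The gene at chr16:19896986-19902245 averaged 12.8 ± 0.75 CPM in PASMC siNRF2 and 6.86 ± 1.4 CPM in PASMC siControl, and 8.73 ± 0.75 CPM in PAEC siNRF2 and 4.36 ± 1.1 CPM in PAEC siControl. The gene at chr20:14095914-14103993 averaged 27.9 ± 1.7 CPM in PASMC siNRF2 and 14.6 ± 3.2 CPM in PASMC siControl, and 18.4 ± 3.0 CPM in PAEC siNRF2 and 10.2 ± 0.085 CPM in PAEC siControl. Their log2 fold changes were 0.94 and 0.98 in PASMC and 1.05 and 0.90 in PAEC. Rank 12, at chr3:6430201-6578882, is described with the genes of many exons below. None of the top 12 shares exon bases with another gene of the table.

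**Figure D2:**
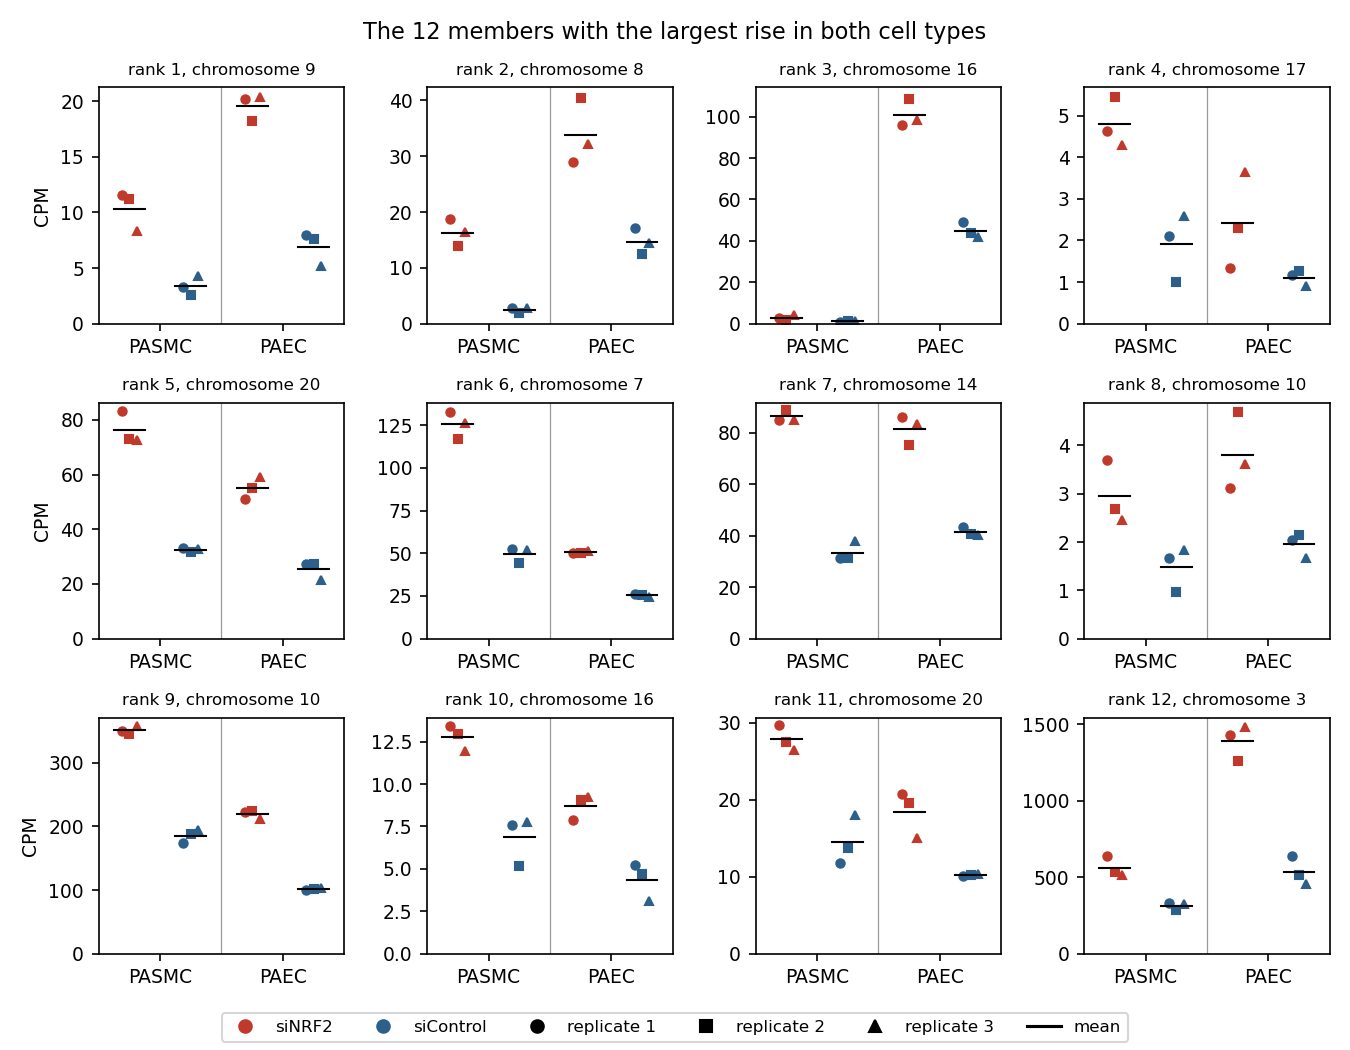
CPM in each library for the 12 genes with the largest smaller log2 fold change, 1 panel per gene with its rank and chromosome. Red points are siNRF2 and blue points siControl, the symbol gives the replicate, lines are means, and each axis starts at 0. The groups do not overlap within either cell type, though the gap is narrow for ranks 3, 4 and 8 and the group means range from 1.11 CPM (rank 4, PAEC siControl) to 1392 CPM (rank 12, PAEC siNRF2).

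Whether the siRNA effect differed in size between the cell types was asked with the interaction, the PAEC log2 fold change minus that in PASMC. It is built from the values that the rule used. The rule sets no condition on their difference, but its conditions on each effect restrict which differences can occur. The p-values come from the fit over all genes and do not allow for this choice of genes. An interaction was found in 19 of the 100 genes (edgeR, Benjamini-Hochberg adjusted p under 0.05). The PAEC effect was larger for 15, where 13.6% of all genes tested were called in that direction, and the PASMC effect was larger for 4, where 15.4% were. In either direction 29.1% of all genes were called. The first count was near its background and the second below it. The rule bounds both effects from below, so these counts are not read as particular to the genes. Over the 100 genes the median interaction was 0.037 (range -1.49 to 1.09), and for 53 of them the log2 fold changes lay within 0.2 of each other.

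The larger PAEC effects ran from 0.39 to 1.09 on the log2 scale. The largest was at chr2:61039053-61340697 (24 merged exons), with 117, 103 and 116 CPM in PAEC siNRF2 against 31.1, 28.7 and 31.9 CPM in PAEC siControl. In PASMC the same gene had 35.5, 43.6 and 36.7 CPM with siNRF2 against 21.4, 24.5 and 20.98 CPM with siControl. The groups lay apart in each cell type, and far more so in PAEC (interaction 1.09, SE 0.14, adjusted p = 4.2e-05).

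The gene at chr2:26118760-26135340 (7 merged exons) showed the same pattern at a higher level. It had 353, 321 and 353 CPM in PAEC siNRF2 against 99.9, 103 and 112 CPM in PAEC siControl, and 139, 155 and 150 CPM in PASMC siNRF2 against 83.4, 106 and 87.9 CPM in PASMC siControl (interaction 1.03, SE 0.13, adjusted p = 3.0e-05, edgeR). Both calls held in every alternative run, including each left-out library.

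The other large PAEC effects named were in genes of low level there. At chr7:116156219-116255167 levels were 2.32, 1.89 and 3.06 CPM in PAEC siNRF2 against 0.926, 0.430 and 0.898 CPM in PAEC siControl, and 13.4, 13.1 and 14.8 CPM in PASMC siNRF2 against 8.81, 9.38 and 8.20 CPM in PASMC siControl (interaction 1.04, SE 0.36, adjusted p = 0.038, edgeR). At chr2:225038582-225107283 they were 5.84, 5.36 and 5.04 CPM in PAEC siNRF2 against 1.36, 1.39 and 1.98 CPM in PAEC siControl, and 9.36, 9.14 and 13.5 CPM in PASMC siNRF2 against 6.55, 5.49 and 6.39 CPM in PASMC siControl (interaction 0.98, SE 0.32, adjusted p = 0.026, edgeR). Of 19 alternatives, the first call was lost in 9, namely without any 1 of 8 libraries and with limma voom (adjusted p up to 0.105). The second was lost in 7, namely without any 1 of 6 libraries and with the trend by gene density removed (up to 0.0729). With these genes, 4 of the 15 lay on chromosome 2, which holds 6 of the 100 and 691 of the 10427 eligible genes, a count made after the values were seen.

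In the opposite direction, the difference at chr8:22856539-22858565 (ENSRNOG00000011490, above) was -1.49 (SE 0.25, adjusted p = 0.00033, edgeR) and was the largest of either sign. The others were -0.56 (SE 0.17, adjusted p = 0.018) at chr14:83755142-83776863, -0.39 (SE 0.12, adjusted p = 0.025) at chr14:44943172-45002719 and -0.35 (SE 0.12, adjusted p = 0.031) at chr7:14037620-14043779. Those at chr5:154315033-154319629, with -0.57 (SE 0.24, adjusted p = 0.084), and chr10:106812739-106816675, with -0.46 (SE 0.23, adjusted p = 0.15), did not pass. The count of 4 moved with single libraries. It was 2 without PASMC siControl replicate 1 or 2 or PAEC siNRF2 replicate 2 or 3, 1 without PAEC siControl replicate 1 and 7 without PAEC siControl replicate 3. In these runs 12.8% to 17.0% of all genes tested were called in that direction.

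**Figure D3:**
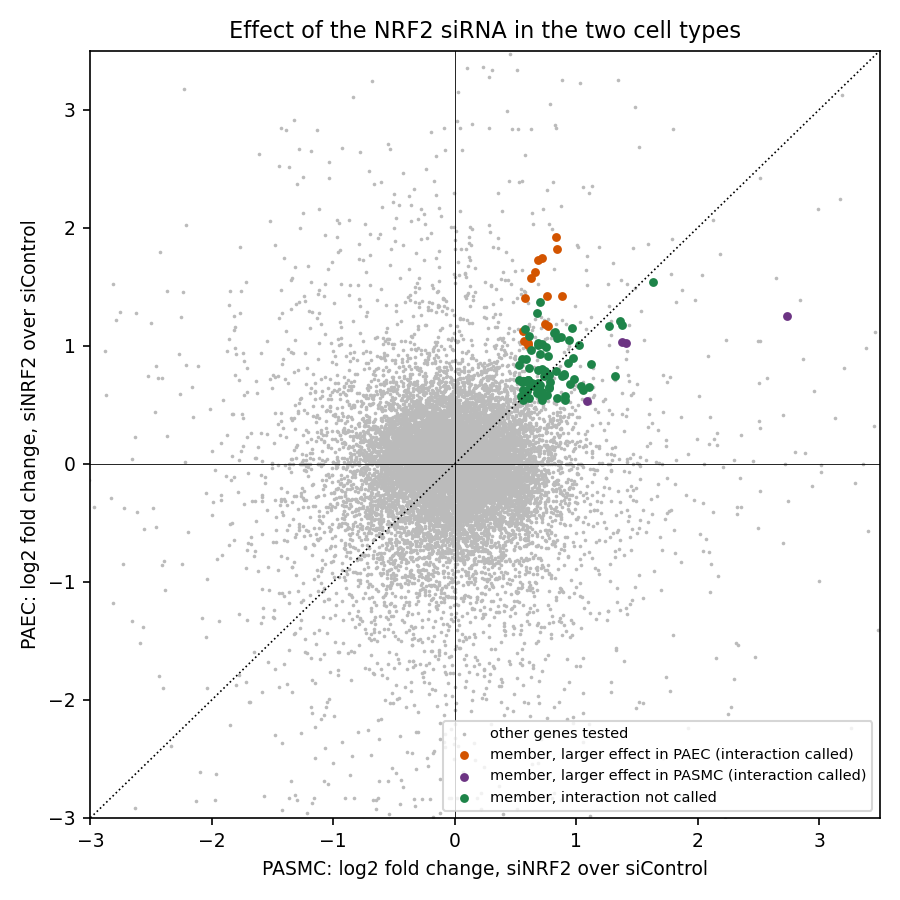
Log2 fold change, siNRF2 over siControl, in PASMC (x) and PAEC (y) for the genes tested, with the 100 in colour. Orange marks the 15 genes with a larger PAEC effect, purple the 4 with a larger PASMC effect and green those whose interaction was not called. The dotted line is equality, and 237 genes tested lie beyond the axes, which run from -3 to 3.5. The 100 genes lie in the upper right quadrant, above 0.53 on each axis, and grey points are spread through all 4 quadrants.

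The level of the 100 genes in the cell types under siControl was compared next, a contrast that the ratio in the rule did not use. Of the 100, 32 had the higher level in PAEC and another 32 in PASMC, where 27.7% and 28.3% of all genes tested were (edgeR, adjusted p under 0.05). Together 64 were called, where 56% of all genes tested and 61.2% of eligible genes were. The median log2 fold change, PAEC over PASMC, was 0.016. Scaled by library totals, which moved the median of all genes by -0.44, 18 had the higher level in PAEC and 58 in PASMC.

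Of the 100 genes, 6 were called and differed by at least 4-fold between the cell types with TMM factors, 4 of them higher in PAEC and 2 higher in PASMC. The share of all genes that differed by as much was not computed, so this count is not read as particular to the genes. The largest difference was at chr16:8128689-8177841, with 45.0 ± 3.8 CPM in PAEC siControl and 1.17 ± 0.37 CPM in PASMC siControl (log2 fold change 5.67, SE 0.24, adjusted p = 2.7e-11, edgeR). It was followed by chr8:22856539-22858565, with 14.7 ± 2.3 CPM in PAEC siControl and 2.52 ± 0.59 CPM in PASMC siControl (log2 fold change 2.98, SE 0.19, adjusted p = 1.5e-10, edgeR). Next was chr10:82745801-82762789, at 2.55 (SE 0.070, adjusted p = 7.0e-16, edgeR). The last of the 4, chr4:30311982-30338679, had 12.7 ± 1.2 CPM in PAEC siControl and 3.5 ± 1 CPM in PASMC siControl (log2 fold change 2.30, SE 0.19, adjusted p = 4.8e-09, edgeR), and was named after its values were seen.

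On the smooth muscle side, chr7:116156219-116255167 stood at 0.751 ± 0.28 CPM in PAEC siControl and 8.80 ± 0.59 CPM in PASMC siControl (log2 fold change -3.10, SE 0.28, adjusted p = 1.5e-08, edgeR). The gene at chr3:147813473-147819571 had 2.98 ± 1.2 CPM in PAEC siControl and 18.2 ± 1.1 CPM in PASMC siControl (-2.17, SE 0.22, adjusted p = 1.2e-07, edgeR). The third gene on this side, chr11:34101197-34121378, differed by less than 4-fold with TMM factors and had 1.15 ± 0.50 CPM in PAEC siControl and 5.08 ± 1.1 CPM in PASMC siControl (-1.71, SE 0.33, adjusted p = 0.00020, edgeR). The calls of the 3 genes at each end held in every alternative run.

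By these classes, the 32 genes higher in PAEC had median log2 fold changes of 0.80 in PAEC and 0.72 in PASMC, the 32 higher in PASMC had 0.90 and 0.71, and the 36 not called had 0.73 and 0.72. The interaction was called with a larger PAEC effect for 6, 7 and 2 genes of these classes and with a larger PASMC effect for 2, 2 and 0. Shares of all genes tested, split by these classes, were not computed, so these counts are not read as particular to the members. The siControl libraries enter both the level and the effect, so no relation is drawn between them.

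**Figure D4:**
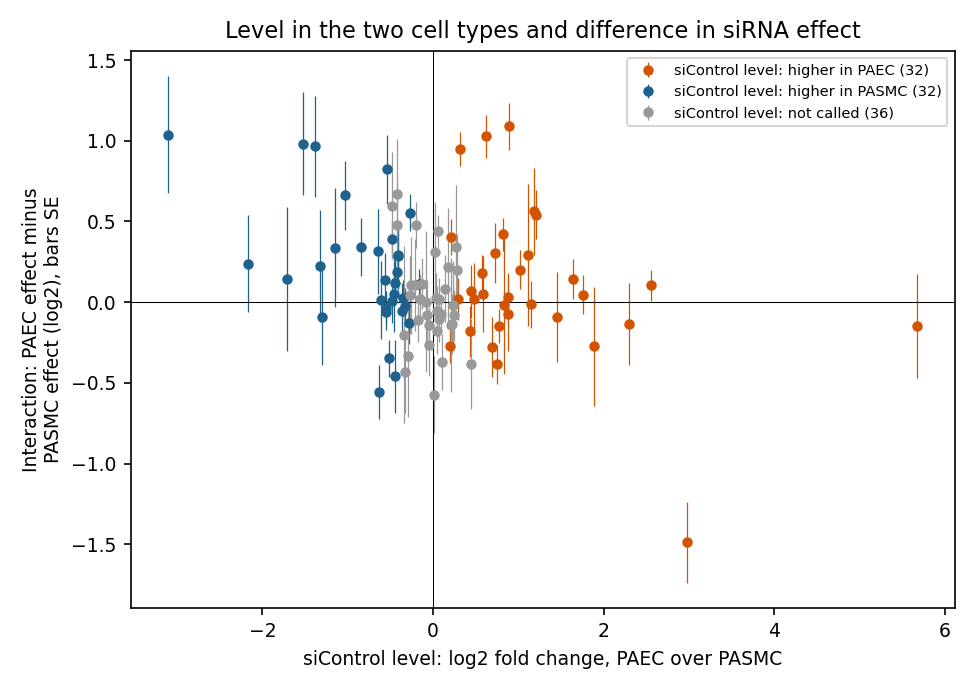
Each point is one of the 100 genes, with the log2 fold change of its siControl level, PAEC over PASMC (x), and its interaction (y, bars ± SE). Orange genes were higher in PAEC, blue genes higher in PASMC and grey genes not called. Points of each colour lie on both sides of 0 on the y axis, and the gene at 2.98 and -1.49 stands apart from the rest.

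The most abundant genes per length were compared as CPM per kb of gene length. The highest level was at chr10:82745801-82762789, with 3346 ± 65 in PAEC siNRF2 and 2115 ± 149 in PAEC siControl, and 722 ± 39 in PASMC siNRF2 and 489 ± 3.8 in PASMC siControl. The gene at chr15:33074441-33083655 (10 merged exons) followed, with 380 ± 6.4 in PAEC siNRF2 and 234 ± 25 in PAEC siControl, and 335 ± 5.0 in PASMC siNRF2 and 185 ± 15 in PASMC siControl. Then came chr9:52092511-52238564 and chr10:45563547-45579029. The median of the 100 genes, 12.5, was close to the 13.8 of eligible genes outside the set.

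Some genes of many exons were among the abundant members, a grouping made after the values were seen. It was not compared with abundant genes outside the set, so it is not read as particular to the 100 genes. At least 40 merged exons were found in 4 of the 100 (4.0%), against 2.24% of eligible genes outside the set. With 68 merged exons, chr3:6430201-6578882 had 1428, 1262 and 1484 CPM in PAEC siNRF2 against 637, 511 and 458 CPM in PAEC siControl, and 635, 533 and 513 CPM in PASMC siNRF2 against 333, 285 and 322 CPM in PASMC siControl. Its effect was larger in PAEC (interaction 0.54, SE 0.15, adjusted p = 0.014, edgeR).

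With 57 merged exons, chr9:52092511-52238564 had 1913, 1982 and 1987 CPM in PAEC siNRF2 against 751, 649 and 636 CPM in PAEC siControl, and 1189.7, 1056 and 1085 CPM in PASMC siNRF2 against 718, 758 and 741 CPM in PASMC siControl. Under siControl it was lower in PAEC than in PASMC by CPM but higher with TMM factors (log2 0.31, adjusted p = 0.0015, edgeR). The effect was larger in PAEC (interaction 0.95, SE 0.11, adjusted p = 7.7e-06, edgeR). With 51 merged exons, chr10:82745801-82762789 had 19670.0, 19055 and 19739 CPM in PAEC siNRF2 against 13220.0, 12249 and 11492 CPM in PAEC siControl, and 4468, 4062 and 4089 CPM in PASMC siNRF2 against 2866, 2858 and 2824 CPM in PASMC siControl. Its effects did not differ detectably (interaction 0.10, SE 0.094, adjusted p = 0.44, edgeR). The fourth, chr4:180538389-180722358 with 49 merged exons, was far less abundant, at 45.2 ± 6.8 CPM in PAEC siNRF2 and 29.2 ± 7.0 CPM in PAEC siControl, and 39.3 ± 4.7 CPM in PASMC siNRF2 and 26.3 ± 4.4 CPM in PASMC siControl.

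At the other end, 8 of the 100 genes had a single merged exon (8.0%), against 3.81% of eligible genes outside the set. The median gene length, taken over all exons of a gene, was 2311 bases, against 2424 outside the set. The median number of merged exons was 9 in each. Exon bases were shared with another gene of the table for 8 of the 100 (8.0%), against 8.59% outside the set. The longest such overlaps were 795 bases on the opposite strand at chr19:43274493-43290363, 651 on the opposite strand at chr10:97771264-97863311 and 491 on the same strand at chr14:78973364-78975166. No source used here says whether counting used strand, so reads of these genes and of their partners may have been mixed.

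On the chromosomes, the 100 genes were most numerous on chromosome 10, with 13, and on chromosomes 3 and 7, with 10 each. As a share of eligible genes they were most frequent on chromosome 19, at 2.15% (7 of 325), and least on chromosome 11, at 0.361% (1 of 277). Within 500 kb of each other lay 7 pairs of consecutive members, and 1 pair had no eligible gene between its genes. It is on chromosome 19, where chr19:37208825-37210412 and chr19:37214471-37216572 lie 4058 bases apart on the minus strand.

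The gene at chr19:37208825-37210412 has a single merged exon. It had 40.3, 36.1 and 32.2 CPM in PASMC siNRF2 against 21.6, 22.7 and 24.8 CPM in PASMC siControl, and 26.2, 25.6 and 28.2 CPM in PAEC siNRF2 against 17.9, 18.5 and 16.6 CPM in PAEC siControl. Its neighbour at chr19:37214471-37216572, with 4 merged exons, had 42.5, 33.1 and 37.2 CPM in PASMC siNRF2 against 24.3, 22.2 and 18.997 CPM in PASMC siControl, and 24.3, 26.1 and 25.7 CPM in PAEC siNRF2 against 15.0, 11.99 and 9.38 CPM in PAEC siControl. The groups did not overlap in either gene, and the pair differed most in PAEC siControl, where the second gene was lower.

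The 100 genes lay in somewhat denser surroundings than others, with a median of 24 genes of the table within 500 kb on either side, against 19 for eligible genes outside the set. Libraries also differed in how levels follow this density. Taken as a deviation from its cell type, the slope of log2 CPM on log2 density was 0.063 ± 0.024 in PASMC siNRF2 and -0.063 ± 0.022 in PASMC siControl, and -0.022 ± 0.022 in PAEC siNRF2 and 0.022 ± 0.045 in PAEC siControl (mean ± SD, n = 3). With this trend removed from each library, the median log2 fold change of the 100 genes was 0.72 in PASMC and 0.80 in PAEC. In that fit 86 and 96 of them were called higher, where 14.1% and 12.4% of all genes tested were. With the trend left in, 95 and 96 were, where 16.1% and 11.5% of all genes tested were. The lowest log2 fold change in PASMC was 0.53 with the trend left in and 0.32 with it removed. The rule used these same contrasts, so the values only describe the members. Whether density bears on the rises was not tested.

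The genes just inside it had a smaller ratio of means of 1.402 (chr9:120099333-120101098), 1.403 (chr14:83755142-83776863) and 1.405 (chr1:198456699-198460126). Those just outside that met every other condition had 1.39969 (chr10:91095545-91122018), 1.398 (chr10:83231238-83311592) and 1.396 (chr7:11838639-11873984).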

How the data were processed

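The submitters' processing notes name the tools HISAT2 (2.0.5), featureCounts (2.0.3) and DESeq2 (1.32.0) without roles or settings. The labels' protocols describe Trizol extraction and a directional library kit. The deposited values are raw counts, 1 column per library, beside exon positions and gene length. The members and the 22 gene lists, written by symbol and not run, were chosen with earlier results of these data known.

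CPM values use column totals. Tests used edgeR 4.0.16 in R 4.3.3 (filterByExpr, TMM, robust glmQLFit, 1 coefficient per group over 12 libraries, 8 residual degrees of freedom), with Benjamini-Hochberg adjustment over 14584 genes, SE from the F statistics and calls at an adjusted p under 0.05. Log2 CPM used a prior count of 2. The fits were tested on simulated data.

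Named were the 12 members highest by the smaller log2 fold change, the 4 largest and 4 smallest interactions, the 4 highest levels per length, 3 at each end of the cell type difference, and 3 on each side of the threshold. Other genes were named after their values were seen. No replicate pair agreed within sampling noise, with a chi-square of 9.09 to 42.3 per gene. Alternatives were other scalings, no filter, DESeq2 1.42.0, limma 3.58.1 voom, only the libraries compared, a replicate block, removal of the density trend (a lowess fit per library, entered as an offset) and each library left out.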

Additional observations from a re-analysis of the deposited data

Results flagged for a closer look

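The effect of the siRNA differed between the cell types for 19 of the 100 genes by the interaction test (edgeR, adjusted p under 0.05), where 29.1% of all genes tested and 36.3% of eligible genes were called. Those named in the text are given here as log2 values, the PAEC effect minus the PASMC effect. The effect was larger in PAEC at chr2:61039053-61340697, by 1.09, at chr7:116156219-116255167, by 1.04, at chr2:26118760-26135340, by 1.03, and at chr2:225038582-225107283, by 0.98. It was larger in PASMC at chr8:22856539-22858565, with -1.49, at chr14:83755142-83776863, with -0.56, at chr14:44943172-45002719, with -0.39, and at chr7:14037620-14043779, with -0.35. Of these 8 calls, 5 were lost in some of the 19 alternatives, in 9 for chr7:116156219-116255167 and for chr7:14037620-14043779, in 7 for chr2:225038582-225107283, in 5 for chr14:44943172-45002719 and in 4 for chr14:83755142-83776863. The other 3 calls held in every alternative run.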

How the results depend on the processing

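The number of members was set by the ratio. A ratio of 1.2 gave 332 genes and a ratio of 2 gave 5. A minimum of 1 CPM gave 104, a minimum of 5 CPM gave 87, and no condition on overlap gave 126. Without 1 library it was 97 to 130. Members called for the interaction numbered 14 to 23 and for the cell type difference 57 to 64 without 1 library. Over all genes those ranges were 3157 to 4729 in PASMC, 2738 to 3717 in PAEC, 3332 to 4808 for the interaction and 7444 to 8261 for PAEC against PASMC. Of 136 recomputed counts of members taken, of genes called and of members called in either direction, 134 were within 1.5 times the reported one. Of a further 138 counts of members called in 1 direction or in both cell types, 8 were not. Among these were 6 counts of larger PASMC effects without 1 library (1 to 7, against 4), where 12.8% to 17.0% of all genes were called. The others were, scaled by library totals, the 18 members higher in PAEC and 58 higher in PASMC, where 14.6% and 51.3% of all genes were called. Members called higher in both cell types numbered 82 to 87 without 1 library. The rule used these contrasts, so this range only describes the members. The matching share of all genes was computed with all 12 libraries only, at 3.15%.

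Of 52 single-gene values, none changed direction in 1030 recomputations, and 52 of these lost the call. Among the values, 18 were siNRF2 effects in PASMC and 18 in PAEC. The rule had set the direction of these effects, so their constant direction is no evidence for it. The interaction was lost for chr7:14037620-14043779 in 9 of 19 alternatives, 8 of them left-out libraries (adjusted p up to 0.127), for chr14:44943172-45002719 in 5 (up to 0.0699) and for chr14:83755142-83776863 in 4 (up to 0.0511). The call in PAEC was lost for chr17:43797721-43798383 in 9 of 20 alternatives and for chr10:70398995-70400317 in 5, and the call in PASMC was lost for them in 1 and 3. The causes were not tested. Fewer libraries leave fewer degrees of freedom.

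No shared deviation was seen between same-numbered siNRF2 and siControl libraries, whose deviations from their group means correlated at -0.058 to 0.013 (no pair above 0.1). With so few libraries per group, this cannot exclude that a number marks a shared animal or culture, which the labels do not state. With a replicate block, 20 members were called for the interaction, where 28.0% of all genes were, and 63 for the cell type difference, where 54.9% were. The lowest count of a member in any library was 13, and whether depth limits the low members was not tested.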
